A study of Mus musculus with 2 samples.

Results

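The set described here is labelled early suprabasal keratinocytes, after the spinous cells that have just left the basal layer of the epidermis. It was not purely epidermal, since 30.6% of its control and 22.7% of its cKO cells carried genes of the hair follicle, by a rule given further on. All cells of the set were chosen by their own counts. Among barcodes with at least 1800 detected genes, a cell was a member when *Krt1* and *Krt10* together made up from 30 to under 300 of every 10000 of its unique molecular identifiers (UMIs, which tag single captured RNA molecules). The rule found 472 members among 8024 kept cells. Of these, 252 were among the 4447 kept control cells, which is 5.67% (95% exact binomial interval 5.01 to 6.39), and 220 were among the 3577 kept cKO cells, which is 6.15% (5.39 to 6.99). The difference of 0.48 percentage points had a counting interval from -0.55 to 1.54. This interval covers the counting of cells in 1 library per genotype and no spread between embryos.

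Back skin epithelium of C57BL/6 embryos at embryonic day 17 was measured in 1 control and 1 *Mettl3* cKO library, both made with 10x Genomics 3′ chemistry. The control library (Ctrl) carried *Mettl3* fl/+, a YFP reporter that the labels spell Rosa16-YFP fl/+ (Rosa26-YFP in the study's methods) and K14Cre, and the cKO library carried *Mettl3* fl/fl with the same reporter and the same Cre. *Mettl3* encodes the catalytic subunit of the enzyme complex that writes N6-methyladenosine (m6A) on mRNA. Both groups therefore had at least 1 floxed *Mettl3* allele, a *Krt14*-driven Cre that acts in epidermal progenitors and their descendants, and sorting of YFP+ cells, so a suprabasal cell was captured only as the offspring of a recombined progenitor. The YFP+ cells were also gated on surface integrins α6 and β1, proteins of basal progenitors, in order to enrich progenitors, and this gate can set the shares of suprabasal cells in either library. The sources used here do not say how many embryos were in each library. With 1 library per genotype no test between genotypes was possible, and every interval below covers counting error only. All 252 control members held an *Xist* UMI and none of the cKO members did, while Y-linked transcripts were seen in 0 control and 137 cKO members (62.3%), so genotype and sex cannot be told apart.

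The epidermis renews from a basal layer that is anchored to the basement membrane by hemidesmosomes and expresses the keratin pair K5 and K14. A cell that commits to differentiate detaches, moves up into the spinous layer, switches to the pair K1 and K10 and builds many desmosomes. Notch signalling is known to drive this switch in mouse epidermis, with receptors in suprabasal cells activated by ligands on neighbouring cells. Above the spinous layer, granular cells make loricrin, filaggrin and the lipids of the barrier.

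Members were compared with 2 sets of neighbours in the same libraries. Basal comparison cells had under 30 *Krt1* and *Krt10* UMIs per 10000, at least 80 of *Krt5* and *Krt14*, under 15 of *Krt17*, and no UMI of the follicle genes *Lhx2*, *Shh*, *Dkk4* or *Krt79* (2053 control and 1122 cKO cells). Late suprabasal cells had 300 or more *Krt1* and *Krt10* UMIs per 10000 (188 and 106 cells). The late cells were 4.23% of the control and 2.96% of the cKO library, a difference of -1.26 points (-2.07 to -0.44). Members made up 57.3% of all control cells at 30 or more per 10000 and 67.5% of those of the cKO, a difference of 10.2 points (3.26 to 16.9). Sums over cells were expressed as CPM, counts scaled to a fixed total of the sum. The members gave 2895591 control and 2560149 cKO UMIs, with medians per cell of 10109.5 and 10523 UMIs and of 2728 and 2733.5 genes. Their median *Krt1* and *Krt10* level was 114 and 115 per 10000, and their median mitochondrial share was 4.37% and 4.86%.

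Facts of the libraries bear on the edges of the set. The libraries held 59664869 and 49755010 UMIs, and 16 kept barcodes occurred in both. Barcodes with too few UMIs to be cells carried *Krt1* and *Krt10* at 35.7 (control) and 36.5 (cKO) per 10000 of free RNA, inside the member range, whereas the median basal cell held 1.957 and 1.932. Scores for doublets (2 cells under 1 barcode) were higher among members than among neighbours, with 11.9% and 9.55% of members among the highest 4% of scores (4.50% and 4.61% of kept cells with ties), against 2.78% and 2.58% of basal and 1.06% and 2.83% of late cells. The part of doublets in the results was not tested beyond leaving those cells out.

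The other markers set for the label were above their basal level in the members, while *Flg*, *Ivl* and *Krt2* of the granular layer were nearly absent. *Notch3*, a Notch receptor of suprabasal cells, stood at 2.22 CPM in control and 2.05 CPM in cKO basal cells, at 39.7 and 33.6 CPM in the members and at 37.5 and 45.7 CPM in late cells. A *Notch3* UMI was found in 34.1% and 30.9% of members and in 1.95% and 1.87% of basal cells, whose median depth was 9072 and 9172 UMIs. *Krt16*, a keratin best known from activated and fast-dividing keratinocytes, stood at 14.4 and 16.3 CPM in basal cells at 112 and 104 CPM in members, with a UMI in 30.2% and 29.5% of them, and at 54.6 and 82.6 CPM in late cells. Both were thus far above basal cells, while neither lay between basal and late cells in both libraries. *Flg* (filaggrin) had no UMI in either sum, *Ivl* (involucrin) had 3 and 0, and *Krt2* had 3 and 1. *Lor* (loricrin) had 53 UMIs in control and 16 in cKO members. A *Lor* UMI was found in 7.54% and 6.82% of members, 9.01% and 13.7% of basal cells and 10.6% and 10.4% of late cells. *Krt77*, also on the granular list, rose from 0.84 and 0.80 CPM in basal cells to 4.49 and 12.1 CPM in members and 28.3 and 36.1 CPM in late cells. Most markers of cells outside the epithelium were near 0. Among members, *Ptprc* of leukocytes, *Cdh5* of endothelium and *Pdgfra* of fibroblasts had no UMI, and *Col1a1* had 3 and 13. *Dcn* (decorin), also on the fibroblast list, stood at 107 and 103 CPM, below its 724 and 599 CPM in basal cells. The Merkel cell factor *Atoh1* had UMIs in 1 control and 2 cKO members, the same number that met the rule for Merkel cells.

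Secreted proteins of the spinous and granular layers showed how far the members had moved. *Krtdap* (keratinocyte differentiation associated protein, chr7:30787896-30791097, GRCm38) and *Sbsn* (suprabasin, chr7:30751471-30756134) are small secreted products of differentiating keratinocytes, and the AP-1 family of transcription factors, which binds TGANTCA, is active in these layers. That motif, searched on both strands and not distinguished from overlapping motifs, occurred in 2565 of 32851 RefSeq promoters of 300 bases (7.81%). Of the 42 late differentiation genes listed for this tissue, 35 had a promoter in the table and 14 of them held the motif. The windows of 30 bases around each match in these 2 promoters are printed because both genes mark the members' progress. They are from RefSeq on GRCm38.p6, plus strand, 5′ to 3′, with the matching 7 bases in capitals and distances counted from the RefSeq start (30787905 for *Krtdap*, 30751471 for *Sbsn*).
*Krtdap*, chr7:30787813-30787842, match from 81 bases before the start: tgatccggggaTGAGTCActagggtgggaa
*Sbsn*, chr7:30751341-30751370, match from 119 bases before the start: gatcttgtccaTGAATCAtcctgtcttcct
*Sbsn*, chr7:30751454-30751483, match from 6 bases before the start: acaggagggatTGAGTCAtgaggggtgggg
A match is a description of the letters and no evidence of binding, and accessibility was not measured here.

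Genes of differentiation were already far above their basal level in the members. *Krtdap* went from 2475 and 2556 CPM in basal cells (control, then cKO) to 6788 and 6249 CPM in members and 10478 and 10465 CPM in late cells. *Sbsn* went from 47.2 and 61.9 to 286 and 322 and then to 939 and 906 CPM. *Lypd3*, a surface protein of suprabasal keratinocytes, went from 6.89 and 10.1 to 204 and 231 and then to 428 and 547 CPM. All 3 thus rose in steps, with members between their neighbours in each library. *Dmkn* (dermokine) stood at 3647 and 3779 CPM in members, and *Calm4*, a calmodulin-like protein of differentiating keratinocytes, at 643 and 674 CPM, again between basal (121 and 183) and late cells (1392 and 1875). Over all 9776 genes measured, 310 were at least 2-fold higher in members than in basal cells in both libraries (3.17%) and 405 at least 2-fold lower (4.14%). Since the cells were chosen on *Krt1* and *Krt10*, every gene that follows them is part of the choice, and these counts are a description. Of 12 late differentiation genes measured, 9 were higher and none lower (median log2 ratio 2.09, against 0.02 for all genes).

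**Figure D1:**
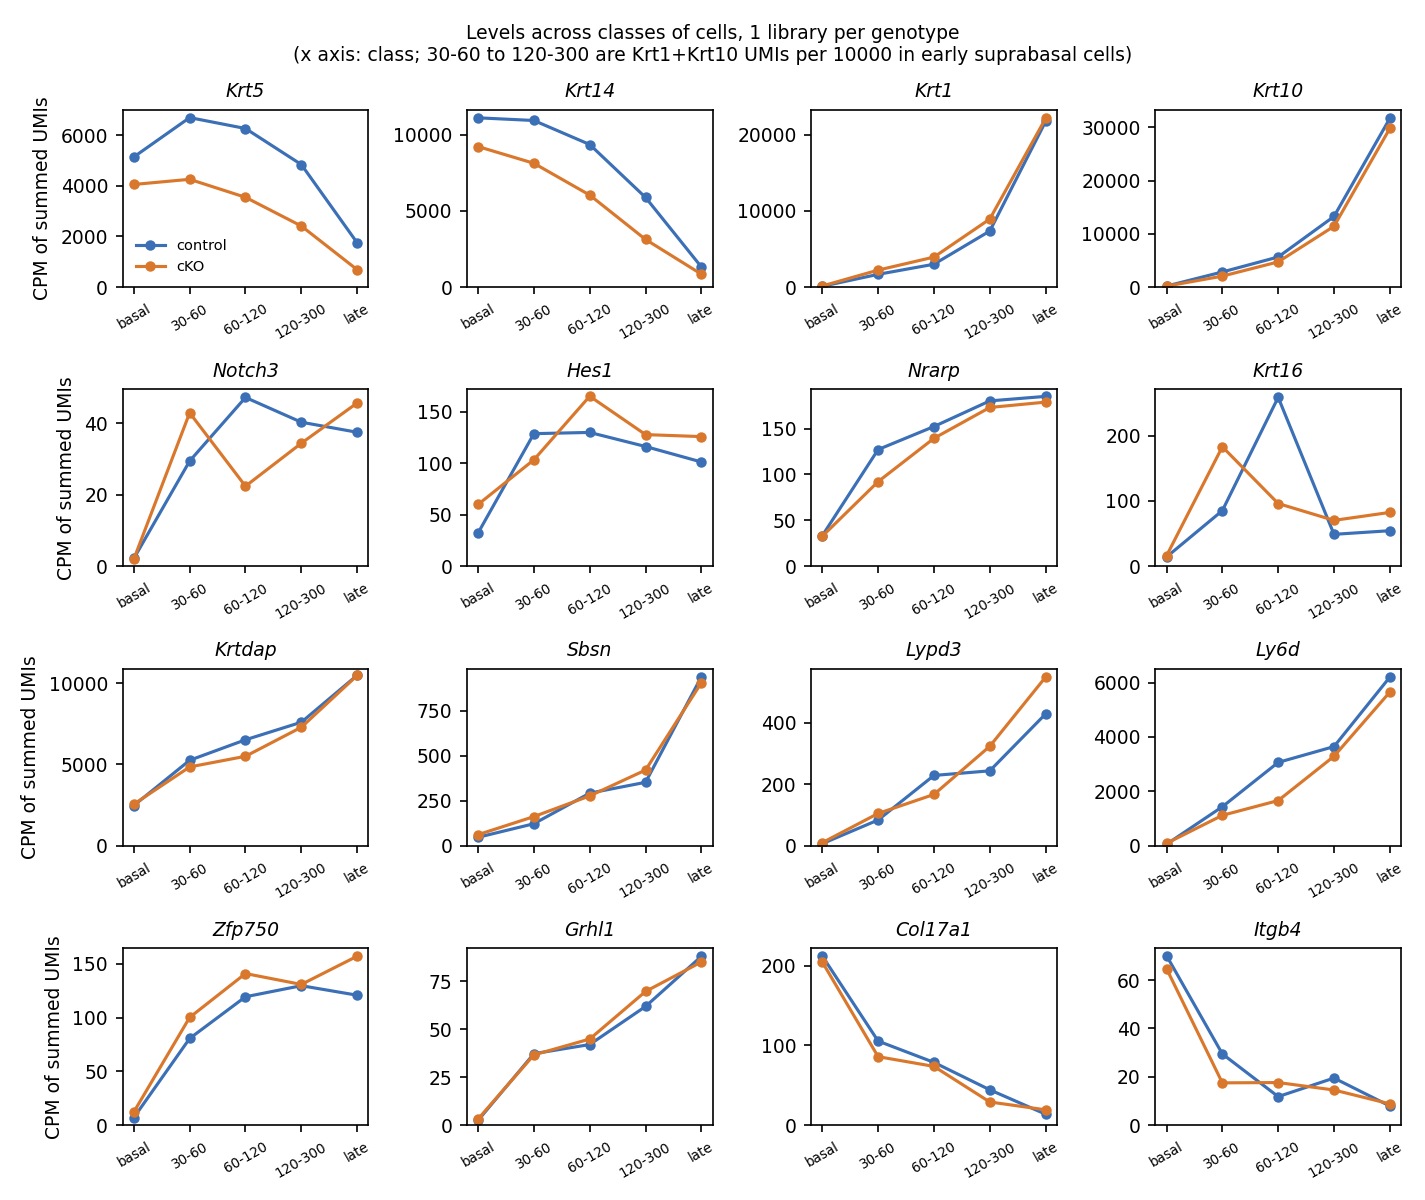
Levels of 16 genes in basal cells, in 3 steps of the members (30 to 60, 60 to 120 and 120 to 300 *Krt1* and *Krt10* UMIs per 10000) and in late cells. The y axis of each panel is CPM of the summed UMIs and starts at 0, each point is 1 library sum, blue is control and orange is cKO, and no spread between replicates exists; *Krtdap* climbs through the members towards 10478 and 10465 CPM, *Col17a1* declines from 212 and 205 CPM, and the *Krt5* and *Krt14* points of the cKO lie below those of the control in all 5 classes.

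Among Notch components, 7 of 24 measured passed 2-fold between basal cells and members. Among receptors, *Notch3* is given above, *Notch1* stood at 83.2 and 95.9 CPM in basal cells, 161 and 142 CPM in members and 93.3 and 73.7 CPM in late cells, and *Notch2* rose from 5.32 and 8.27 CPM to 13.5 and 18.4 CPM. The ligands *Dll1* and *Jag2* and the glycosyltransferase *Lfng*, which modifies Notch receptors, were lower in members: *Dll1* fell from 23.3 and 21.2 to 1.73 and 2.34 CPM. *Jag1*, another ligand, stood at 37.3 and 42.2 CPM in members against 23 and 27.9 in basal cells. Among targets, *Hes1*, a transcriptional repressor, rose from 32.4 and 60.02 to 123 and 131 CPM. *Nrarp*, a feedback inhibitor, rose from 33.4 and 32.8 to 161 and 145 CPM. In all, 4 genes of the list were at least 2-fold higher in members in both libraries and 3 were lower. Over all genes measured, 3.17% were higher and 4.14% lower.

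Transcription factors of epidermal differentiation were near their late level in the members. *Zfp750*, a factor needed for terminal differentiation, stood at 7.04 and 12.3 CPM in basal cells, 116 and 126 in members and 121 and 157 in late cells. *Grhl1*, a grainyhead-like factor of the epidermal barrier, stood at 2.51 and 3.2, then 51.1 and 55.5, then 87.9 and 85.0 CPM. *Klf5*, a Krüppel-like factor, rose from 120 and 136 to 334 and 332 CPM and then changed less than 2-fold into late cells. Of 29 factors measured, 11 were higher in members than in basal cells and 1 was lower, beside 3.17% and 4.14% of all genes. From members to late cells none of 27 was higher and 1 was lower. *Trp63*, the factor that maintains basal identity, declined from 293 and 317 CPM to 174 and 162 CPM, less than the 2-fold limit. For the comparison of late cells with members, 120 of 6583 measured genes were at least 2-fold higher in late cells (1.82%) and 346 lower (5.26%).

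Structural genes moved in opposite directions, and their counts stand beside 3.17% of all genes higher in members and 4.14% lower. Genes of adhesion to the basement membrane were lower, with 7 of 19 measured hemidesmosome and basement membrane genes at least 2-fold lower in members and none higher. *Col17a1*, a hemidesmosome collagen, went from 212 and 205 to 67 and 53.9 CPM, and *Itgb4*, the integrin subunit of the hemidesmosome, from 70.1 and 64.7 to 19.7 and 16 CPM. The basal keratins moved less, and none of the 3 was 2-fold lower in both libraries (median log2 ratio -0.18). *Krt5* went from 5137 and 4050 to 5625 and 3139 CPM, so in the control it was higher in members. *Krt14* went from 11117 and 9228 to 7927 and 5066 CPM, and *Krt15* from 6370 and 3872 to 5873 and 3197 CPM. Genes of cell to cell adhesion were higher, with 10 of 25 desmosome and junction genes up and 2 down. The desmosomal plaque gene *Dsp* rose from 240 and 260 to 611 and 609 CPM and the desmosomal cadherin gene *Dsg1a* from 14.7 and 23 to 139 and 161 CPM. *Cdkn1a*, the cell cycle inhibitor p21, rose from 13.5 and 15.2 to 153 and 160 CPM, and *Ccnd2*, encoding cyclin D2, fell from 930 and 974 to 220 and 264 CPM.

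Genes of cholesterol synthesis were higher in members than in basal cells, as were some genes of barrier lipids. Over all genes measured, 3.17% were at least 2-fold higher in members than in basal cells and 4.14% lower. From members to late cells 1.82% were higher and 5.26% lower. Of 22 measured genes of cholesterol synthesis, 12 were at least 2-fold higher in members than in basal cells and none was lower (median log2 ratio 1.15), and from members to late cells none of 20 moved past 2-fold (median 0.07). *Sqle*, the squalene epoxidase, rose from 30.1 and 38.5 to 72.2 and 78.1 CPM and then stood at 88.7 and 97.8 CPM. *Fdps*, farnesyl diphosphate synthase, rose from 39.5 and 55.1 to 97.0 and 156 CPM and then stood at 103 and 171 CPM. Of the genes of epidermal barrier lipids, 5 of 21 were higher in members than in basal cells and 5 of 18 higher in late cells than in members. *Elovl4*, which elongates very long fatty acids for ceramides, rose from 1.53 and 1.69 to 96.7 and 107 and then to 355 and 365 CPM. *Acer1*, an alkaline ceramidase with too few UMIs for the comparison with basal cells, had 2.76 and 3.12 CPM in members and 61.7 and 84.2 CPM in late cells.

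The keratins of the basal layer were lower in cKO than in control members. *Krt5* (chr15:101707070-101712898) stood at 5625 CPM in control and 3139 CPM in cKO members, a ratio of 0.56 (95% counting interval 0.54 to 0.57). *Krt14* (chr11:100203162-100207548) stood at 7927 and 5066 CPM, a ratio of 0.64 (0.63 to 0.65). *Krt15* (chr11:100131758-100135928), another keratin of basal progenitors, stood at 5873 and 3197 CPM, a ratio of 0.54 (0.53 to 0.56). All 3 passed the limit of 1.5-fold, whereas over all genes measured in members 157 of 5186 were at least 1.5-fold lower (3.03%) and 367 at least 1.5-fold higher (7.08%). In basal cells 220 of 9471 genes were lower (2.32%) and 542 higher (5.72%), and *Krt15* alone of the 3 was past 1.5-fold, at 0.61. The ratios there were 0.79 for *Krt5* and 0.83 for *Krt14*, which the basal rule constrains, since it asked for a minimum level of both.

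The *Krt5* ratio moved with the amount of *Krt1* and *Krt10* in the cell. In the step of 30 to 60 per 10000 (62 control and 58 cKO cells) *Krt5* stood at 6691 and 4254 CPM, a ratio of 0.64. In the step of 60 to 120 (66 and 54 cells) it stood at 6260 and 3543 CPM, a ratio of 0.57, and in the step of 120 to 300 (124 and 108 cells) at 4837 and 2410.03 CPM, a ratio of 0.50. Late cells were at 1749 and 685 CPM, a ratio of 0.39. The basal keratins were therefore lower in cKO members at a matched level of the suprabasal pair, in each step. *Krt14* gave 0.74, 0.65 and 0.53 in the 3 steps and 0.64 in late cells, and *Krt15* gave 0.51, 0.61 and 0.52, without an order. Taken per cell, the median *Krt5* and *Krt14* level of members was 125 per 10000 in control and 67.5 in cKO, with quartiles of 68.4 and 186 in control and 29.5 and 119 in cKO. Per cell, then, the ranges overlapped broadly. Free RNA of these libraries held *Krt5* at 39.3 and 28.5 per 10000, *Krt14* at 82.2 and 58.2 and *Krt15* at 46.9 and 26.7. It thus differed between the libraries in the same direction for all 3 genes. Its part in the members' difference was not tested beyond subtracting a fixed share of it. *Krt14*, *Krt16* and *Krt17* are closely related neighbours on chromosome 11, and how reads of shared sequence were assigned could shift counts among them.

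**Figure D2:**
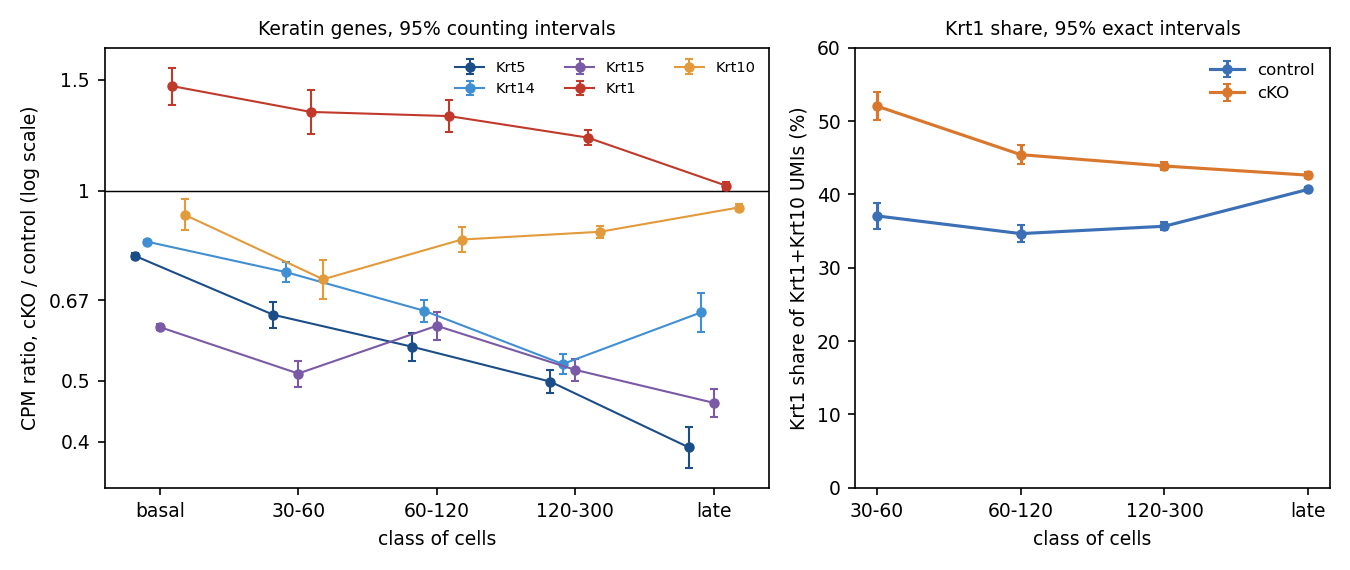
Left, the CPM ratio of cKO to control (log scale) of 5 keratin genes in basal cells, the 3 steps of members and late cells, with 95% counting intervals of 1 library per genotype. Right, the *Krt1* share of *Krt1* and *Krt10* UMIs (%, axis from 0) in the 3 steps and in late cells with exact binomial intervals; *Krt5* goes from 0.79 in basal to 0.39 in late cells, and the *Krt1* share differs between genotypes by more in the first step (37.1% and 52.0%) than in late cells (40.7% and 42.6%).

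The suprabasal pair itself was made up differently, although its sum was set by the rule. *Krt1* (chr15:101845426-101850794) supplied 35.6% (35.1 to 36.1) of the *Krt1* and *Krt10* UMIs of control members and 44.7% (44.2 to 45.3) of those of cKO members. The medians over cells were 36.2% and 46.0%, and the difference of the pooled shares was 9.15 percentage points. In the 3 steps, from low to high, the control stood at 37.1%, 34.7% and 35.7% and the cKO at 52.0%, 45.4% and 43.9%. The gap was thus smaller in the later steps, and in late cells the shares were 40.7% and 42.6%. It was not particular to members, since the few *Krt1* and *Krt10* UMIs of basal cells gave 34.4% and 45.6%. Free RNA gave 38.7% and 42.4%, nearer to each other than the members. The gap was also smaller in members without a UMI of *Mki67* or *Top2a* (92 control and 64 cKO cells), at 41.8% and 46.0%, than in members with one (160 and 156 cells), at 33.1% and 44.3%. By gene, the *Krt1* ratio over all members was 1.23 (4943 and 6066 CPM) and the *Krt10* ratio was 0.84 (8941 and 7489 CPM), so neither gene passed 1.5-fold.

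Between genotypes, calls of the differentiation lists stand beside those over all genes measured in members, of which 7.08% were higher in the cKO and 3.03% lower. Of 9 late differentiation genes measured in members none was at least 1.5-fold higher in the cKO and 1 was lower (median log2 ratio 0.05, against 0.00 for all genes and 0.45 for the list in basal cells), a median whose sign turned under several alternatives. The lower gene was *Stfa3*, a cysteine protease inhibitor of the stefin family, at 4867 and 2667 CPM (ratio 0.55, 0.53 to 0.56), and 0.53 in basal cells. *Stfa3* belongs to a cluster of near-identical genes, so its count is uncertain. *Ly6d*, a surface antigen of stratified epithelium, stood at 3002 and 2361 CPM (0.79) and *Lgals7*, an abundant galectin of stratified epithelium, at 14317 and 15208 CPM (1.06). None of 24 differentiation factors passed 1.5-fold in either direction. *Cebpb* came nearest among those named, at 277 and 373 CPM (ratio 1.35, 1.22 to 1.48).

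For the Notch list, 13 genes were measured in members and none passed 1.5-fold (median log2 ratio -0.16), beside 7.08% higher and 3.03% lower over all genes. *Notch3* had 115 control and 86 cKO UMIs (39.7 and 33.6 CPM), a ratio of 0.85 (0.63 to 1.13), and its value changed sides between steps, from 29.5 and 42.9 CPM in the first to 47.2 and 22.4 CPM in the middle one. *Hes1* (chr16:30064384-30067796) gave a ratio of 1.07 (0.92 to 1.24) in members, while in basal cells it stood at 32.4 and 60.02 CPM, a ratio of 1.85. The share of cells with a *Hes1* UMI, with each cell reduced to 5000 UMIs, was 13% in control and 22.9% in cKO basal cells, and 39.1% and 40.7% in members (difference 1.65 points, -7.18 to 10.5). The interval of the ratio thus held 1 in members, and the difference between the 2 classes was not tested.

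Other lists are given beside the same shares over all genes, 7.08% higher and 3.03% lower. Among 19 genes of cholesterol synthesis, 3 were at least 1.5-fold higher in cKO members and 18 had a ratio over 1 (median log2 ratio 0.31, and 0.36 in basal cells). These were *Fdps* (ratio 1.61, 1.38 to 1.88), *Fdft1*, the squalene synthase (53.5 and 86.3 CPM, 1.61), and *Nsdhl*, a sterol dehydrogenase (26.2 and 43.7 CPM, 1.67). Among 11 epidermal lipid genes 4 were higher, including the fatty acid elongase genes *Elovl1* (57.3 and 92.6 CPM, 1.61) and *Elovl7* (25.6 and 44.1 CPM, 1.73) and the desaturase gene *Scd2* (74.6 and 140 CPM, 1.88). Among 19 desmosome and junction genes none was lower, and *Dsp* stood at 611 and 609 CPM. None of 9 hemidesmosome genes passed in either direction.

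Calls of the stress and growth lists stand beside those over all genes measured in members, of which 7.08% were higher and 3.03% lower. Among 10 measured p53 targets 1 was higher in cKO members, *Phlda3*, an inhibitor of AKT signalling (ratio 1.53), and 1 was lower, *Trp53*, the p53 gene that the list also holds (0.64). Among 17 genes of the integrated stress response 1 was higher, *Aldh18a1* of proline synthesis (2.17), and 1 was lower, *Asns*, the asparagine synthetase (0.65). Among 35 translation initiation genes 1 was higher, *Eif1a* (1.84), and none lower. Among 14 regulators of G1, *Ccnd1*, encoding cyclin D1, was higher (18.3 and 28.9 CPM, 1.58), and 3 were lower, namely *Cdkn1c*, described further on, the inhibitor gene *Cdkn2c* (0.64, with its direction turned when the range ended at 150) and the damage response gene *Gadd45a* (0.58). *Krt16* was not apart over all members, with a ratio of 0.93 (0.79 to 1.10), but it stood at 85.3 and 183 CPM in the first step, 258 and 96.1 CPM in the middle step and 49.0 and 70.4 CPM in the last, so its direction differed between steps. These sums rest on few cells, since 3 cells held 30.8% of its 325 control and 3 cells 37.1% of its 267 cKO UMIs.

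The m6A machinery included the targeted gene. *Mettl3* had 35 UMIs in control and 10 in cKO members, 12.1 and 3.91 CPM, a ratio of 0.32 (0.14 to 0.67). This is under the 100 UMIs set for a call, and 3′ reads need not cover the floxed exon. Of 18 genes of the machinery that were measured, 3 were higher in cKO members and none lower, beside 7.08% and 3.03% of all genes. *Rbm15*, which guides the m6A writer to RNA, stood at 15.2 and 40.6 CPM (2.67, 1.86 to 3.89). *Ythdf2*, a reader that promotes decay of methylated mRNA, stood at 67 and 139 CPM (2.07, 1.73 to 2.48), while the related readers *Ythdf1* (1.31) and *Ythdf3* (1.13) did not pass. The remaining gene was *Cbll1*, a subunit of the writer complex, at a ratio of 1.74. None of 12 mitochondrially encoded and 3 of 80 ribosomal protein genes passed as higher, and none of either passed as lower.

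**Figure D3:**
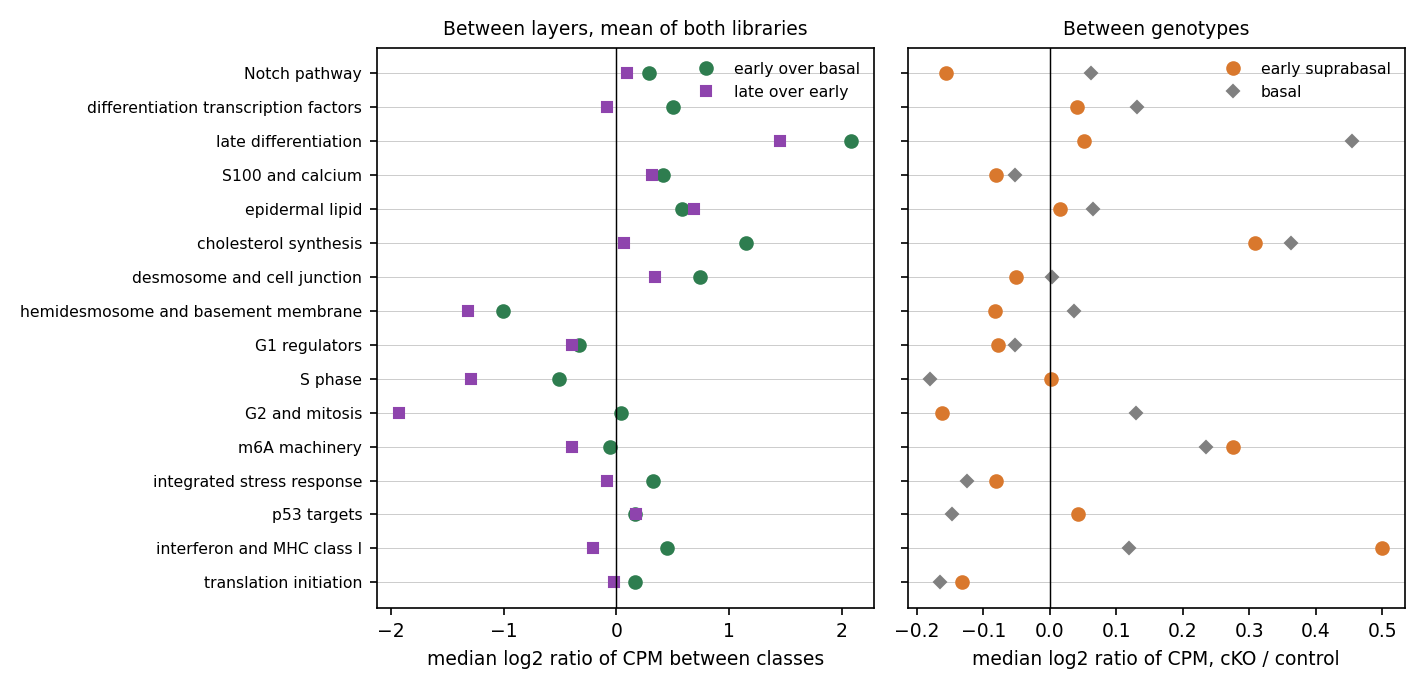
Median log2 ratios of 16 gene lists. Left, members over basal cells (circles) and late cells over members (squares), averaged over both libraries. Right, cKO over control in members (circles) and in basal cells (diamonds). Medians rest on the genes with enough UMIs in each comparison and carry no error, since genes are not replicates; cholesterol synthesis lies at 1.15 on the left and 0.31 on the right.

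Several of the genes furthest apart between genotypes were apart in basal and late cells too. *Rpp25l*, a subunit of RNase P and RNase MRP, stood at 46.6 and 189 CPM in members (ratio 4.05, 3.34 to 4.93), with 3.41 in basal and 3.49 in late cells. *Nxt1*, a cofactor of mRNA export, stood at 117 and 339 CPM (2.91), with 2.79 and 2.92. *Pop7*, another RNase P and MRP subunit, stood at 42.8 and 112 CPM (2.61), with 2.25 and 2.43. These genes thus differed by about as much in each layer. The mitochondrial ribosomal gene *Mrpl46* (2.91), the RNA polymerase subunit gene *Polr2l* (2.70) and *Pelo*, which rescues stalled ribosomes (25.9 and 66.4 CPM, 2.56, 1.94 to 3.41), also ranked among the highest.

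On the other side were histone and keratin genes. *Hist3h2a* stood at 60.8 and 16 CPM (ratio 0.26, 0.18 to 0.37) and the linker histone gene *Hist1h1c* at 82.2 and 27.3 CPM (0.33, 0.25 to 0.44), and in basal cells the ratios were 0.21 and 0.26. *H2afx*, the histone variant of the DNA damage response, stood at 330 and 161 CPM (0.49). *Cdkn1c*, the cell cycle inhibitor p57, stood at 110 and 55.1 CPM (0.50, 0.41 to 0.61), with 0.48 in basal cells. *Anxa1*, a calcium-dependent membrane-binding protein, stood at 727 and 482 CPM (0.66). In late cells, 257 of 3652 measured genes were at least 1.5-fold higher in the cKO (7.04%) and 167 lower (4.57%).

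*Ccer2* needs its cells named. It stood at 67 CPM in control and 228 CPM in cKO members (ratio 3.40, 2.88 to 4.02), but 3 cells held 90.2% of its 194 control UMIs and 3 cells held 97.4% of its 583 cKO UMIs. Without the cells that met the rule for Merkel cells its ratio was 0.83. Of the 53 control *Lor* UMIs 24 were in 1 cell, whereas the 16 cKO UMIs were spread over 15 cells.

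Members held transcripts of dividing cells at levels near those of basal cells and above those of late cells. Of 30 genes of G2 and mitosis none was 2-fold apart between members and basal cells (median log2 ratio 0.04), while 28 were at least 2-fold lower in late cells than in members (median -1.92). Of 26 S phase genes none moved past 2-fold between basal cells and members (median -0.51), and 16 of 23 were lower in late cells. Over all genes measured, 3.17% were 2-fold higher and 4.14% lower in members than in basal cells. Between members and late cells 5.26% of all genes were lower in late cells (median -0.13). With each cell reduced at random to 5000 UMIs, *Mki67*, a marker of cycling cells, had a UMI in 26.7% of control and 33.2% of cKO members, a difference of 6.46 points (-1.83 to 14.7). Averaged over all possible reductions it was 26.2% and 34.5%, a difference of 8.36 points (0.021 to 16.6), beside 25% and 31.3% in basal, 9.0% and 13.7% in late and 8.0% and 8.4% in Merkel cells, which serve as the background but number only 20 and 16, with exact intervals up to 31.7% and 30.2% in 1 reduction. In the first step of members the direction was the other way, at 30.2% and 28.8%, and in the others it was 19.3% and 37.3%, then 27.9% and 36.2%. Before reduction it was 43.3% and 52.3%. The interval of the difference thus lay on or just past 0, depending on the way of averaging.

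*Top2a*, a topoisomerase of S phase and mitosis, did not follow *Mki67*. It had a UMI in 47.6% of control and 43.7% of cKO members (difference -3.82 points, -12.7 to 5.20) and stood at 253 and 183 CPM (ratio 0.72), while *Mki67* stood at 86.3 and 104 CPM (1.20, 1.01 to 1.44). Of 30 genes of G2 and mitosis, 2 were lower in cKO members and none higher, namely *Plk1*, a mitotic kinase (69.1 and 42.6 CPM, 0.62), and *Nusap1*, a spindle protein (0.63, with its direction turned in members without a UMI of *Mki67* or *Top2a*). Over all genes measured in members 3.03% were lower and 7.08% higher. *Ccna2*, encoding cyclin A2, stood at a ratio of 0.67 and did not pass. By sign, 10 of the 30 had a ratio over 1 (median log2 ratio -0.16), against 23 of 30 in basal cells (0.13). In late cells 2 of 14 had a ratio over 1 (-0.51) and 6 were lower, beside 4.57% of all genes there. In unmarked members (those without the follicle genes given further on) 5 of 28 had a ratio over 1 and 6 were lower (median -0.26). Over all genes measured in unmarked members, 145 of 4191 were lower.

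**Figure D4:**
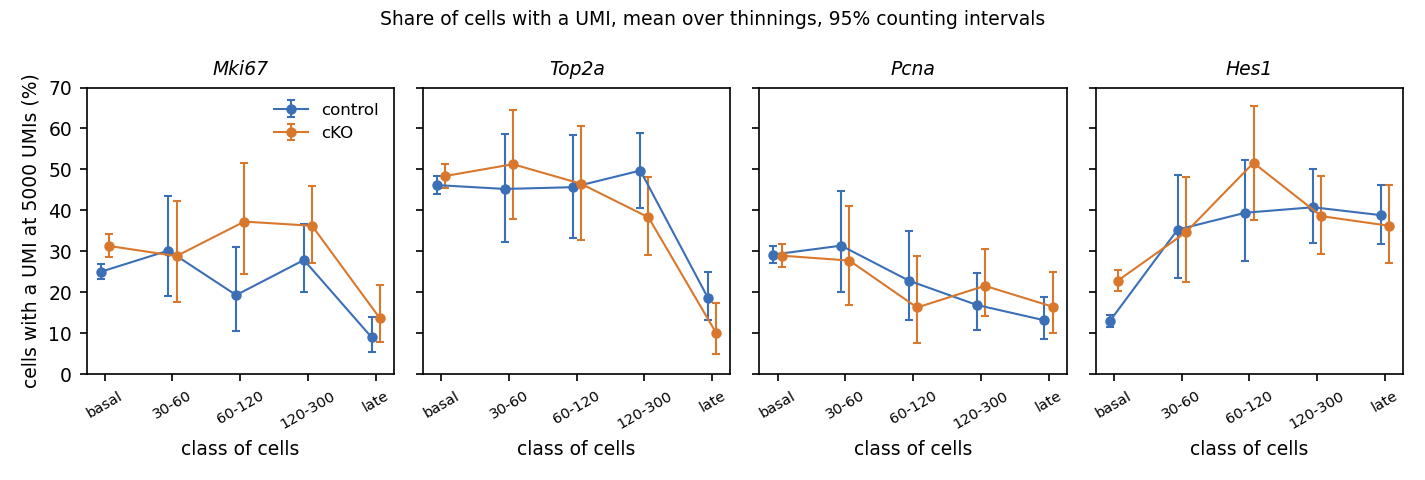
Share of cells (%) with a UMI of *Mki67*, *Top2a*, *Pcna* or *Hes1* in basal cells, 3 steps of members and late cells, as the mean over all reductions of each cell to 5000 UMIs. Bars are 95% counting intervals of 1 library per genotype, blue for control and orange for cKO. *Mki67* and *Top2a* are lower in late cells than in each step of members. *Hes1* stands at 13% and 22.9% in basal cells. In the steps of members it stands at 35.3% and 34.6%, 39.4% and 51.6%, then 40.8% and 38.6%, with wider intervals.

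Some members carried genes of the hair follicle. Counting cells with at least 15 *Krt17* UMIs per 10000 or a UMI of *Lhx2*, *Shh*, *Dkk4* or *Krt79*, 77 control members (30.6%) and 50 cKO members (22.7%) were marked, a difference of -7.83 points (-15.6 to 0.20). In the middle step the shares were 40.9% and 16.7% (difference -24.2 points, -38.5 to -7.88), and in the others they were 33.9% and 36.2%, then 23.4% and 18.5%. Cells under 30 per 10000 were marked in 42.4% and 49.2%, in the other direction. *Krt17*, a keratin of follicle and appendage epithelium, stood at 1668 CPM in control and 840 CPM in cKO members (ratio 0.50, 0.48 to 0.53). Within the marked members it stood at 4862 and 2812 CPM, a ratio of 0.58, and in unmarked members the ratio was 0.81, although *Krt17* itself defined the marked cells. By step the ratio was 0.81, 0.33 and 0.50. Of the members' *Krt17* UMIs, 3 cells held 21.9% in the control and 21.5% in the cKO. The part of the marked cells in the *Krt17* difference was not tested. In unmarked members the ratio was 0.58 for *Krt5* and 0.55 for *Krt15*, and the *Krt1* shares were 35% and 44.5%.

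Marked members also differed from unmarked ones in genes that were not used to mark them. *Sostdc1*, a secreted WNT and BMP inhibitor of hair placodes, stood at 458 and 631 CPM in marked and 76.1 and 74.4 CPM in unmarked members. *Sox9*, a transcription factor of follicle progenitors, stood at 64.3 and 71.8 CPM in marked and 10.4 and 7.14 CPM in unmarked members. *Calm4* was higher in the marked cells as well, at 1202 and 1192 against 403 and 515 CPM, as was *Asprv1*, a protease of upper epidermis, at 582 and 529 against 201 and 247 CPM. *Wnt16*, a WNT ligand, was lower, at 29.8 and 26.7 against 57.8 and 58.6 CPM. Both libraries thus gave the same direction for each of these 5 genes, which were picked from the extremes of the comparison.

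Few genes were higher in the members than in both sets of neighbours. At 1.5-fold over both basal and late cells in both libraries there were 32 of 9953 genes (0.322%), among them the follicle genes *Krt17*, *Krt79* and *Sox9*, the keratin genes *Krt7*, *Krt8* and *Krt18*, the transcription factor gene *Runx1*, and *Mthfd2*, an enzyme of mitochondrial one-carbon metabolism. *Mthfd2* stood at 17.6 and 20.1 CPM in basal cells, 32.8 and 34.0 in members and 13.3 and 17.6 in late cells. *Krt8*, at 13.5 and 17.6 CPM in members, had 79.5% and 93.3% of its UMIs in 3 cells of each library. Without the follicle-marked cells 19 genes met the rule, 12 of which were among the 32, *Mthfd2* included and *Krt17* not. Without the cells of highest doublet score 17 of the 32 remained, and *Krt7*, *Krt8*, *Krt18* and *Sox9* were among those that did not. A level above both neighbours was thus uncommon at this threshold.

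The cells next to the limits of the range were few. Between 25 and 30 per 10000, just outside, there were 11 control and 19 cKO cells with *Krtdap* at 3882 and 4622 CPM, and between 30 and 35 there were 13 and 13 cells with 3908 and 4543 CPM. Between 250 and 300, just inside, there were 31 and 22 cells with 8255 and 8448 CPM, and between 300 and 350 there were 26 and 18 cells with 8244 and 8497 CPM. *Krt5* stood at 5843 and 3837 CPM just above the lower limit and at 6817 and 3922 CPM just below it. At the upper limit *Krt5* stood at 3843 and 1422 CPM just inside and 3178 and 1037 CPM just outside, and *Krt14* at 4506 and 1505 CPM inside and 2671 and 1603 CPM outside. *Krtdap* was thus close on either side of each limit, while control *Krt14* was lower just beyond the upper one.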

How the data were processed

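Single-cell RNA of E17 skin epithelium was measured in 1 control and 1 *Mettl3* cKO library. The deposited values are raw UMI counts for each gene in each barcode. The authors obtained them from Cell Ranger (version 2.0 in the submitters' notes, a later one in the methods) on mm10, with the annotation release not given in the sources used here and no normalization applied. All barcodes were listed. Following the methods of the study, cells needed 1800 or more genes.

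UMIs were summed over the cells of each class and library and scaled to CPM. Intervals were exact Poisson, conditional binomial, Clopper-Pearson and Newcombe at the 95% level. They cover counting error only. A gene was called at 1.5-fold between genotypes, or at 2-fold in both libraries between layers, with at least 100 UMIs in the sums compared. For shares of cells with a UMI, cells were thinned to 5000 UMIs and shallower ones left out. Genes named were the markers, genes the study names, the extremes and most abundant members of each list, the 12 highest and 12 lowest ratios at 200 UMIs or more and the 12 leading peak genes, while others named for the layers and follicle-marked cells were chosen after their values were seen. Scrublet marked 6 and 3 cells, too few to be informative, so none was removed and an alternative left out the highest 4% of scores. Interval coverage and call recovery were checked on simulated Poisson sums. These sums left out the gathering of UMIs in a few cells, so the check says nothing about it. Python 3.11.15, numpy 2.4.6, scipy 1.17.1, pandas 2.3.3, scanpy 1.11.5 and matplotlib 3.10.9 were used. Coordinates are from GENCODE on GRCm38, matched by identifier for 27645 of 27998 genes. The members, lists and rules were chosen with earlier results of these data known. Gene and cell cutoffs, normalization, free RNA, doublets, follicle-marked, cycling and Merkel cells were varied, as given in the closing section. Values of 2 genes are not reported here.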

Additional observations from a re-analysis of the deposited data

Results flagged for a closer look

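*Ccer2* was picked out because its genotype ratio pointed in opposite directions in members and in basal cells. The ratio was 3.40 in members (194 and 583 UMIs) and 0.24 in basal cells (594 and 79 UMIs, 29.2 and 7.02 CPM). The difference between the 2 classes was not tested. In members, 3 cells of each library held 90.2% and 97.4% of its UMIs, and the ratio was 0.83 without the cells that met the Merkel rule and 0.81 without the cells of highest doublet score.

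Barcodes below the gene limit were outside every comparison, and some had the members' *Krt1* and *Krt10* level. Among barcodes of 1000 to under 1800 genes, 87 of 1769 in the control (4.92%) and 101 of 1944 in the cKO (5.20%) lay in the range, with median mitochondrial shares of 11.3% and 11.6%. Their *Krt5* level was 4666 and 2361 CPM, and *Krt1* supplied 40.3% and 48.9% of the pair, the same direction between libraries as in members. Free RNA of both libraries lay in the range as well, and its part in these barcodes was not tested.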

How the results depend on the processing

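With 1 library per genotype, no alternative carries a spread between animals, and depth limits genes under about 100 UMIs. No paired analysis was possible because each genotype had 1 library and the labels give no replicate numbers. Of the values that answer a comparison, 88 stayed within their limits and 20 moved. The count of genes higher in cKO members (367) was 221 for the range of 30 to under 150, 102 in members without a UMI of *Mki67* or *Top2a*, where only 1832 genes were measured, 1118 at 20 UMIs, 183 at 200 UMIs and 70 at 2-fold. The count of lower genes (157) was 74 without such UMIs, 634 at 20 UMIs, 80 at 200 UMIs and 13 at 2-fold. With median of ratios scaling 299 genes were higher and 207 lower, so 59.1% of calls were higher, against 70.04% with totals. The count of peak genes (32) was 19 without follicle-marked cells, 20 with TMM factors, 20 with median of ratios and 104 at 20 UMIs, and without the highest doublet scores 17 of the 32 were shared. The *Mki67* difference (6.46 points) was 21.1 points from 60 to under 300 in 1 random reduction and 11.7 points as the mean over reductions, a choice made after seeing the data, as were leaving out Merkel cells and the alternatives for the *Krt1* share. The median of late differentiation genes (0.05) was -0.25 from 30 to under 150, -0.057 with equal weight for each cell, -0.14 with equal weight for 3 steps and -0.21 without *Mki67* or *Top2a* UMIs, so its sign was not stable. The *Krt1* share difference (9.15 points) was 11.3 points from 30 to under 150 and 4.20 points without *Mki67* or *Top2a* UMIs. Ratios that crossed 1 were *Nusap1* at 1.4 without *Mki67* or *Top2a* UMIs, *Cdkn2c* at 1.10 from 30 to under 150, *Pthlh* at 0.89 from 60 to under 300, *Creb5* at 1.03 without follicle-marked cells, and *Ccer2* at 0.81 without the highest doublet scores and 0.83 without Merkel cells. Of the other values, 2515 stayed and 164 moved without crossing 1. The causes were not tested.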
